A study of Mus musculus with 5 samples.

Results

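RNA that came down with the translation initiation factor eIF4E was compared with cytoplasmic RNA before precipitation, in the neocortex of E13.5 mouse embryos of wild-type genotype. The comparison used 4 of the 5 libraries of the study: 2 from precipitates with an antibody against eIF4E and 2 from Input, the cytoplasmic fraction before precipitation. The 1 remaining library, a precipitate with rabbit immunoglobulin G (IgG) from the same kind of lysate, was not in the comparison, and its level is given as the background of the procedure. A gene was tested where its value reached 1 in 2 or more of the 4 libraries, which left 12648 of the 49875 gene IDs. As far as the labels say, all 5 libraries came from wild-type tissue of the same age and differed only in the step before RNA extraction. By their labels the 2 libraries of each group are biological replicates, but no animal, litter or pool is named, so p-values cover only the spread among the libraries at hand.

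eIF4E binds the methylated guanosine cap at the 5′ end of mRNAs and, through the scaffold eIF4G, brings them to the small ribosomal subunit. Its availability is held down by the 4E-binding proteins, which mTOR kinase inactivates, and mRNAs differ in how much their translation falls when eIF4E is scarce. mRNAs whose first transcribed base is a C followed by a run of pyrimidines, the terminal oligopyrimidine or TOP mRNAs, are known for their strong dependence on mTOR. In the embryonic cortex, translation of stored mRNAs is one of the layers that control when progenitors give rise to neurons.

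Values were per-length abundances (TPM or FPKM, which the deposited table does not say), so levels of different genes could be compared within a library, and the depth behind a value was unknown. Column totals were 718857 and 708778 in eIF4E, 838759 and 848550 in Input and 560076 in IgG. Genes above 0 numbered 18677 and 18745 in eIF4E, 17529 and 17412 in Input and 11825 in IgG. A value of 0 in the lone IgG library is thus weak evidence that a gene had no background. Replicates lay close together, with over 2-fold between them in 1.297% of genes tested for eIF4E and 0.680% for Input. The cortical label held in Input, where 10 of 10 markers of cortical progenitors and 10 of 10 of cortical neurons were at 1 or more in both libraries, and 4 of 8 markers of the ventral forebrain were. Markers of other cells were also found: 9 of 10 erythroid markers reached that level, as did 7 of 9 of endothelial and mural cells, 6 of 9 of microglia and 5 of 8 of meninges and mesenchyme. The summed erythroid level was 6448 and 4845 in eIF4E, 17169 and 18701 in Input and 2541 in IgG. The summed levels of progenitor markers (1641 and 1599 in eIF4E, 2000.5 and 2030.1 in Input) and of neuron markers (1733 and 1688 against 1628 and 1648) lay closer together. Single markers of both kinds moved both ways, however. Among progenitor markers, Emx1 was at 80.7 and 81 in eIF4E against 219 and 222 in Input, and Pax6 at 62.4 and 60.4 against 23.6 and 25.9. Among neuron markers, Tubb3 was at 622 and 556 in eIF4E against 946 and 979.5 in Input, and Sox11 at 115 and 117 against 18.5 and 18.1. The summed levels were 61.4 and 61.2 against 131 and 139 for endothelial and mural cells and 25.3 and 19.8 against 50.8 and 59.6 for microglia. For meninges and mesenchyme they were 95.4 and 91.7 against 134 and 115. In these sums too single markers went both ways, such as Cldn5 (21.8 and 24.5 against 58.4 and 59.3) and Rgs5 (8.32 and 7.8 against 2.21 and 2.73). The part of these cells in the results was not tested.

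The bases next to the cap are shown first, because eIF4E holds the cap and the TOP motif sits directly behind it. Each run below gives, from RefSeq (GRCm38.p6), the first 25 bases of a transcript from its annotated start. Capitals mark the unbroken run of pyrimidines at the cap. The motif was a C at the first base followed by at least 4 pyrimidines (C or T), read on the transcript's strand only and at that place only, and 2.51% of the 32851 RefSeq starts held it. The first 4 are the most abundant ribosomal protein genes with the motif that were lower in eIF4E, the next 4 the most abundant other genes with it that were at least 2-fold higher, and the last 3 are among the most abundant other genes with it that were at least 2-fold lower.
Rpl15: CTTCCTTTCCTCTggcggcagccat
Rps6: CTCTTTTTCgtgacgcctcccaggc
Rps27: CCTTTCCggcggtgacgacctccct
Rplp2: CTTTCgccgccggacgccgccgagg
Srsf5: CTTCCattttgtgcaacgtccgagc
Nap1l1: CTTTTTTagcgccatctgctcgcgg
Zfp664: CTCCCggaggcgtctgggtgtgcgg
Gpbp1: CTCTCCCCCaggcgccgacgtagag
Rack1: CTTTTTCTCCacagggtcgtggtgg
Fau: CTTCCTCTTTCTTgactccatcttc
Ndufb11: CTCTTTagaagcttgctgtcctttg
Their positions in GRCm38.p6, with the strand in parentheses, are Rpl15 chr14:18270962-18270986 (minus), Rps6 chr4:86857343-86857367 (minus), Rps27 chr3:90213624-90213648 (minus), Rplp2 chr7:141447651-141447675 (plus), Srsf5 chr12:80945499-80945523 (plus), Nap1l1 chr10:111473227-111473251 (plus), Zfp664 chr5:124862705-124862729 (plus), Gpbp1 chr13:111490103-111490127 (minus), Rack1 chr11:48800360-48800384 (plus), Fau chr19:6057947-6057971 (plus) and Ndufb11 chrX:20617595-20617619 (minus). By RefSeq they are the first bases of a transcript of each gene.

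A pyrimidine run at the cap was found on both sides of the comparison. Of the 9560 tested genes with a RefSeq start, 283 outside the ribosomal protein genes held the motif. Among these, 117 were higher and 86 lower in eIF4E (limma, adjusted p under 0.05), beside 43.5% higher and 30.9% lower over all genes tested. Their median log2 difference was 0.11, against 0.17 for the 9217 other genes without the motif. Ribosomal protein genes lay lower with or without it: 13 with the motif had a median of −1.75 (11 lower, 0 higher) and 47 without it had −1.29 (37 lower, 2 higher). Many ribosomal protein genes have processed pseudogenes that can take some of their reads. An annotated start can also lie a few bases from the start used in this tissue, so a gene counted without the motif may still hold it. The groups with and without it are therefore no clean split into TOP and other mRNAs, for ribosomal protein genes or for others. These counts cannot show the part of the motif, which was not tested.

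Nap1l1, a histone chaperone whose start holds a run of 7 pyrimidines, measured 301 and 310.4 in eIF4E against 95.9 and 93.7 in Input. The libraries of the 2 groups did not overlap (3.201-fold on value + 1, adjusted p = 7.44e-05). Gpbp1, a promoter-binding protein with a run of 9, was at 118 and 128 in eIF4E against 10.2 and 8.65 in Input, 11.9-fold higher. Srsf5, a splicing factor with a run of 5, was at 691 and 724 in eIF4E against 271 and 253 in Input. On the other side, Rack1, a protein of the small ribosomal subunit with a run of 10, was at 626 and 616 in eIF4E against 1764 and 1842 in Input, or 0.345 of Input. Fau, which encodes a ribosomal protein fused to a ubiquitin-like domain and holds a run of 13, was at 500.5 and 388 in eIF4E against 1056 and 1123 in Input; Rack1 and Fau are grouped here by symbol outside the ribosomal protein genes. The length of the run thus did not separate the few genes shown: runs of 5 to 9 stood among those higher and runs of 5 to 13 among those lower, ribosomal protein genes included. In IgG, Nap1l1 was at 311 and Gpbp1 at 158, above both eIF4E libraries, while Rack1 and Fau were at 234 and 185, below both other groups.

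Across all genes, 5507 were higher and 3908 lower in eIF4E than in Input (74.4% of genes tested), and in 2966 (23.5%) and 925 (7.31%) the difference was at least 2-fold. Fold changes are of value + 1, which understates those of low genes. The median gene differed by 0.15 on the log2 scale and the median absolute difference was 0.66. Groups of 2 libraries did not overlap, with eIF4E higher, in 50.2% of genes and, with eIF4E lower, in 37.8%, so lack of overlap alone says little of a gene here. The split of the calls depended on how the libraries were brought to 1 scale and on the filter. As deposited, 58.5% of the calls were higher, against 50.4% with median-of-ratios scaling (4828 higher, 4754 lower), 45.5% with quantile normalization (4316 and 5177) and 70.1% with every library at the same total (6452 and 2756). These scalings moved the median of all genes by −0.16, −0.27 and 0.22, so gene lists are given below relative to that median. No called gene was called in the other direction with median-of-ratios scaling or the same total, and 16 were with quantile normalization. As for the filter, 1012 genes passed it only through eIF4E, and 968 of them were called higher. Only through Input passed 262 genes, of which 225 were called lower. Over genes at 1 or more in all 4 libraries, 54.4% of the calls were higher (4320 higher, 3615 lower).

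**Figure D1:**
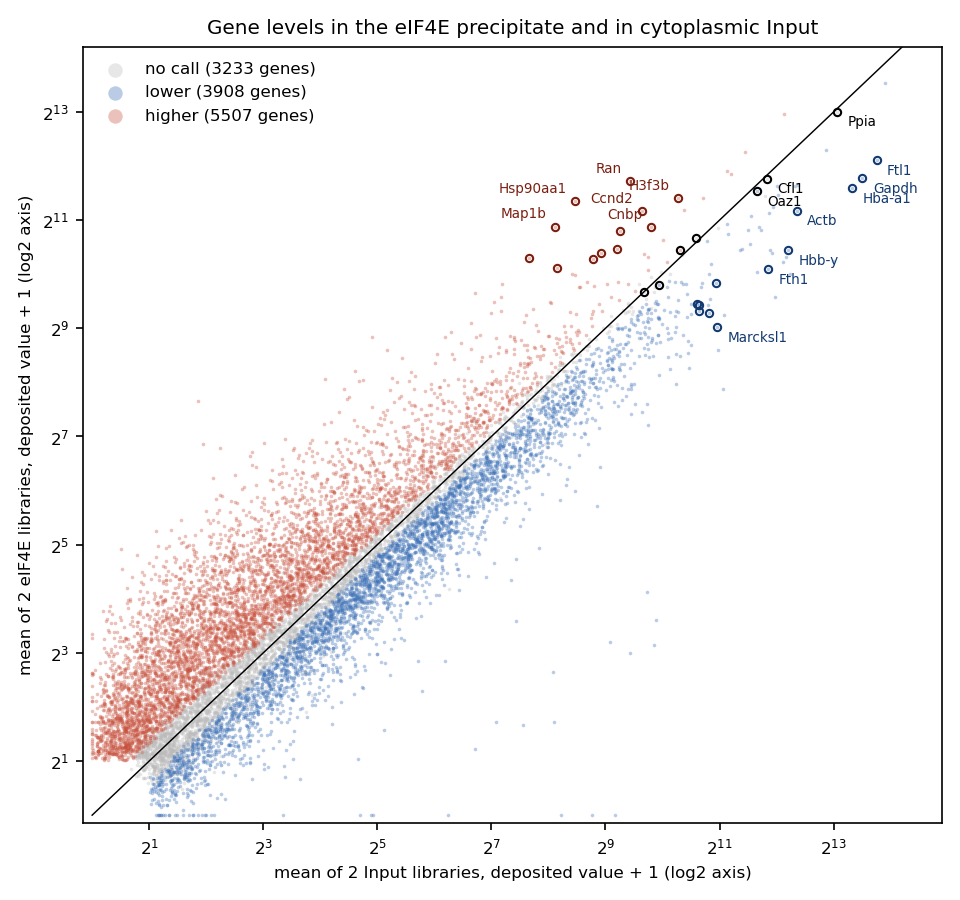
Each point is 1 of the 12648 genes tested, at its mean value + 1 in 2 Input libraries (x axis, log2) and 2 eIF4E libraries (y axis, log2); red is higher, blue lower and grey no call. The line marks equal levels, and ringed genes are the most abundant ones named in the text, such as Ran above it, Ftl1 below it and Ppia on it.

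Among abundant mRNAs, the 12 highest in eIF4E that differed by at least 2-fold encode regulators of nuclear transport, chromatin, splicing, the cytoskeleton and calcium signalling. Together they made up 3.22% and 3.20% of the eIF4E totals, against 0.803% and 0.817% of the Input totals. Ran, the GTPase of nuclear transport (chr5:129020156-129024322 in GRCm38.p6, as all positions here), measured 3619.6 and 3104 in eIF4E against 597 and 778 in Input. Both eIF4E libraries lay far above both Input libraries (4.92-fold, log2 2.30, SE 0.15, limma adjusted p = 2.70e-04), and IgG, at 86.6, lay below both groups. Hsp90aa1, the stress-inducible cytosolic HSP90, was at 2582 and 2616 in eIF4E against 352 and 356 in Input (7.32-fold) and at 1625 in IgG. Map1b, a microtubule-associated protein of growing axons, was at 1872 and 1898 in eIF4E against 276 and 276 in Input (6.801-fold) and at 1163 in IgG. Neither gene's Input libraries came near its eIF4E libraries, and IgG lay between them.

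The cell cycle and RNA-binding members of the 12 showed the same order of eIF4E and Input. Ccnd2, the cyclin D of cortical progenitors, was at 2248 and 2324 in eIF4E against 799.9 and 789.9 in Input (2.87-fold), and it was the only one of the 12 with IgG above both eIF4E libraries (5209.6). Hnrnpa2b1, a splicing and RNA transport factor, was at 1728 and 1839 in eIF4E against 617 and 596 in Input, and Ddx5, an RNA helicase, was at 1081 and 1129 in eIF4E against 287 and 279 in Input. Cnbp, a zinc-finger protein that binds single-stranded nucleic acids, was at 1808 and 1945 in eIF4E against 897 and 878 in Input (2.11-fold), with IgG below Input at 659.8. Eif4e itself, the mRNA of the precipitated factor, was at 1231 and 1300.1 in eIF4E against 198 and 205 in Input and at 120.2 in IgG. Over the 12 genes, IgG lay above both Input libraries in 7; over all higher genes it did so in 65.1%. Comparisons with IgG, here and in the other paragraphs, rest on 1 library and share the Input libraries with the comparison of eIF4E. They were made on the deposited scale, where the column total of IgG (560076) was below those of Input (838759 and 848550). IgG thus lies lower in them than it would at equal totals, and its order at equal totals was not tested. As a share of the column total, the 12 made up 2.47% in IgG, against 0.803% and 0.817% in Input.

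The 12 most abundant mRNAs that were at least 2-fold lower encode iron storage proteins, globins, actin, glycolytic and mitochondrial enzymes and signalling proteins. They made up 7.04% and 7.14% of the Input totals, against 2.83% and 2.73% of the eIF4E totals. Ftl1, the ferritin light chain (chr7:45457944-45459886) and the most abundant of them, measured 4393 and 4405 in eIF4E against 13719 and 13890.1 in Input (0.319 of Input, log2 −1.65, SE 0.04, limma adjusted p = 6.46e-05). Fth1, the ferritin heavy chain, was at 1069.8 and 1105 in eIF4E against 3701 and 3704 in Input, so both ferritin subunits lay at about the same fraction of Input. Hbb-y, an embryonic globin, was at 1579 and 1214 in eIF4E against 4534 and 4870.4 in Input, and Hba-a1, an alpha globin with a near-identical copy that shares its reads, was at 3508 and 2657 in eIF4E against 9729 and 10714 in Input. These globins come from red blood cells in the dissected tissue. The replicate numbers were not shown to pair an Input with a precipitate from the same lysate. Lower recovery of globin mRNA with eIF4E, a smaller share of such cells in the lysate used and less RNA per cell thus cannot be told apart.

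Beside Actb, Marcksl1, Rack1 and Ppp1ca, whose values are given with other groups of genes, the rest of the 12 encode cytosolic and mitochondrial enzymes. Gstp1, a glutathione transferase, was at 918 and 906 in eIF4E against 1923 and 2015 in Input (0.464 of Input). Atp5g2, which encodes the ring subunit of ATP synthase, was at 679 and 595 in eIF4E against 1528 and 1673 in Input, and Cox4i1, of cytochrome c oxidase, was at 760.2 and 641 in eIF4E against 1494 and 1636 in Input. Gapdh, of glycolysis and with many pseudogenes, was at 3373 and 3640.2 in eIF4E against 11779.7 and 11449 in Input. All 12 lay lower in both eIF4E libraries than in either Input library. On the deposited scale the IgG library lay lower still in all 12, by little for Fth1 (1060). Over all lower genes, IgG lay below both Input libraries in 82.7%. The IgG column total was the smallest (560076), which by itself lowers IgG values in such comparisons. As a share of the column total, the 12 made up 1.92% in IgG, against 2.83% and 2.73% in eIF4E. The 100 most abundant genes of each library held 26.4% of the total in each eIF4E library, against 32.7% and 32.98% in Input.

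**Figure D2:**
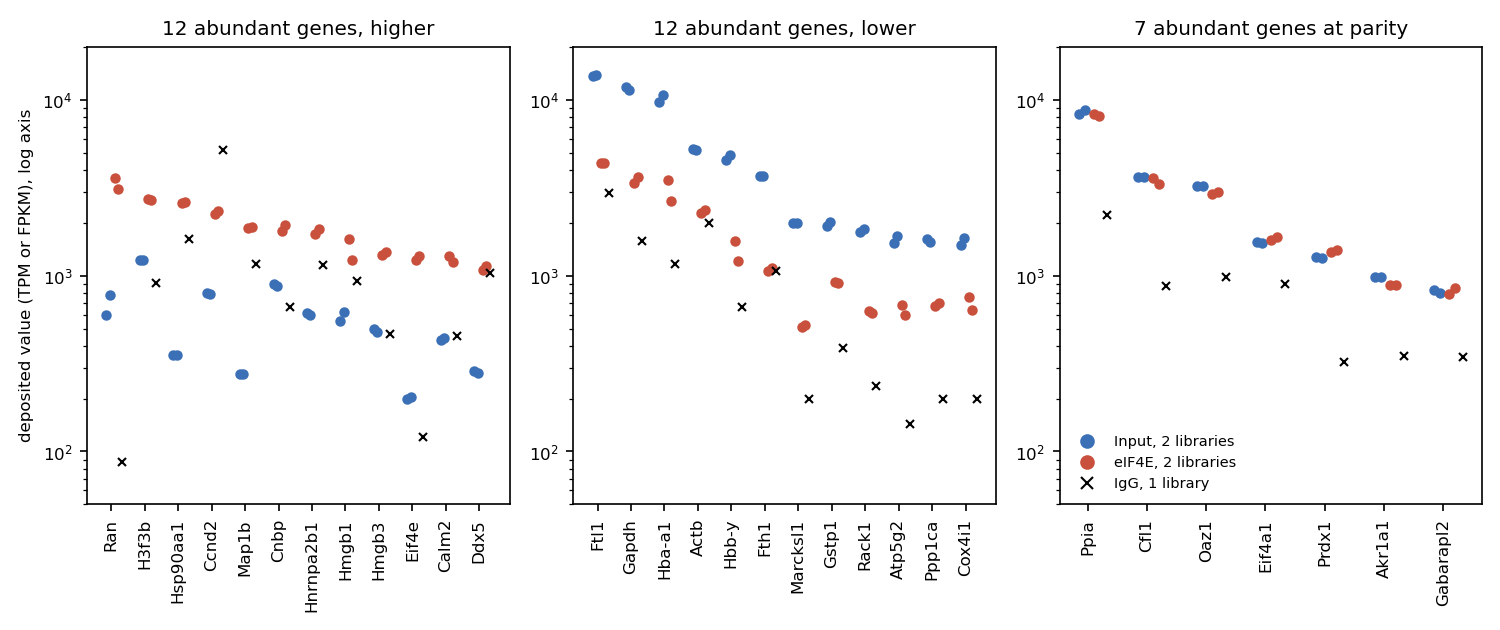
Deposited value (y axis, log scale, TPM or FPKM) of the 12 most abundant genes at least 2-fold higher, the 12 at least 2-fold lower and 7 at parity, with 1 point per library. In the left panel eIF4E (red) lies above Input (blue) for every gene. There the IgG library (cross) ranges from 86.6 for Ran to 5209.6 for Ccnd2. In the middle panel the cross lies lowest for all 12 on the deposited scale, on which the IgG total was the smallest.

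Some abundant mRNAs came through the precipitation at nearly their Input level. In 377 genes (2.98%) the 95% interval of the fold lay within 1.2-fold in either direction, and 7 of these are named here for their level in Input. Ppia, the cyclophilin A gene, was at 8308 and 8134 in eIF4E against 8338 and 8769.9 in Input (log2 −0.06, SE 0.05, limma adjusted p = 0.315). Cfl1, the main cofilin, was at 3615 and 3334 in eIF4E against 3635 and 3664 in Input, and Eif4a1, the helicase that works with eIF4E, was at 1601 and 1654 in eIF4E against 1551 and 1536 in Input. Gabarapl2, of the autophagosome, was at 784 and 854 in eIF4E against 829 and 797 in Input, with overlapping groups. The other members were Oaz1, the antizyme of polyamine synthesis (log2 −0.13), Akr1a1, an aldehyde reductase (−0.15), and Prdx1, a peroxiredoxin (0.13). Oaz1 and Akr1a1 passed the test as lower and Prdx1 as higher, all by under 1.2-fold, and each of these 3 calls was lost with either Input library left out (adjusted p from 0.143 to 0.238). Oaz1 was also lost without eIF4E replicate 1 (adjusted p = 0.0785) and Prdx1 without eIF4E replicate 2 (0.0701). Parity holds on the deposited scale only: with the same total, Ppia and Cfl1 passed as higher (0.18 and 0.17), and with quantile normalization they lay at 0.72 and 0.56. Prdx1 turned with median-of-ratios scaling (−0.06), and Oaz1 and Akr1a1 turned with the same total (0.11 and 0.10) and with quantile normalization (0.48 and 0.26). Ppia and Cfl1 have many processed pseudogenes, so their values are uncertain.

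At the other end, 6 genes had a listed value of 0 in each eIF4E library and of 5 or more in each Input library, and no gene showed the opposite. Of these, 5 were mRNAs of the mitochondrial genome, which carry no cap and are made inside the organelle. The other mRNAs of that genome did not meet this rule, and their levels are not given here. mt-Co3 was at 0 and 0 in eIF4E, 550.2 and 604 in Input and 672 in IgG. mt-Atp6 was at 0 and 0 in eIF4E, 395 and 477 in Input and 1365 in IgG. Rn7s6, a 7S RNA gene and the 1 gene tested of a list of 15 RNAs made without a methylguanosine cap, was at 0 in both eIF4E libraries and in IgG, and at 28.97 and 20.8 in Input. The libraries were primed on poly(A), so RNAs of this list were measured poorly in every group.

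Genes that encode the same protein (calmodulin, histone H3.3) or closely related members of 1 family were compared next. Of 67 genes in 19 such sets, 64 were tested, 36 were higher and 15 lower, beside 43.5% higher and 30.9% lower over all genes tested, and 7 sets held both a higher and a lower member. The 3 members not tested were Sfn, Tmsb15a and Ube2d2b, which did not reach the minimum level. RSEM divides reads that match several genes, so members with near-identical stretches carry more uncertainty than their intervals show.

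Calmodulin, the calcium sensor, is encoded by several genes with identical protein products. Calm2 (chr17:87433401-87446935) measured 1293 and 1198 in eIF4E against 431 and 444 in Input. Calm3 (chr7:16915379-16924032) went the other way, at 200.1 and 178 in eIF4E against 361 and 407 in Input. Calm2 was higher in both eIF4E libraries (2.84-fold), and Calm3 was lower in both (0.493 of Input, log2 −1.02, SE 0.09, limma adjusted p = 5.94e-04). In IgG, Calm2 and Calm3 were at 453 and 138. On the per-length scale, the level of Calm3 relative to that of Calm2 was thus smaller in the precipitate than in Input.

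The 2 genes of histone H3.3, the replication-independent H3 variant, also parted. H3f3b was at 2736 and 2696 in eIF4E against 1229.8 and 1234 in Input (2.204-fold, log2 1.14, SE 0.04, limma adjusted p = 8.51e-05). H3f3a was at 1064 and 983 in eIF4E against 1121 and 1122 in Input, with eIF4E a little below Input and no call (adjusted p = 0.0726). With median-of-ratios scaling H3f3a passed as lower (−0.33) and with quantile normalization as higher (0.28), and without eIF4E replicate 1 it passed as lower (−0.19, adjusted p = 0.0194), while H3f3b was higher under each scaling. Neither start shown here holds a pyrimidine run at the cap, as the first 25 bases show, in lower case throughout. The RefSeq span of H3f3b, on the minus strand, ends at 116026039, upstream of the start shown, so that gene has another annotated start.
H3f3a: ggggcggcgtgtgtaggggaaagcc
H3f3b: ggagcgcagagcggtttggtcgttc
These bases lie at H3f3a chr1:180813581-180813605 (minus) and H3f3b chr11:116024480-116024504 (minus) in GRCm38.p6, from RefSeq. Both genes have processed pseudogenes.

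Of the 6 14-3-3 genes tested, adaptors that bind phosphorylated proteins, 5 were higher and 1 lower. Ywhab was at 111 and 119 in eIF4E against 65.95 and 66.7 in Input (1.72-fold) and Ywhae at 1291 and 1361 in eIF4E against 847 and 790 in Input (1.62-fold). Ywhah, the lower one, was at 329.7 and 316 in eIF4E against 439 and 443 in Input (0.732 of Input). Ywhag was only 1.16-fold higher and lost its call with median-of-ratios scaling (log2 0.02, adjusted p = 0.687) and with either Input library left out (0.22 and 0.21, adjusted p = 0.0621 and 0.0666). Protein phosphatase 1, a broad serine/threonine phosphatase, has 3 catalytic genes: Ppp1cb was at 26.1 and 25.7 in eIF4E against 6.74 and 6.05 in Input (3.64-fold), Ppp1cc rose 1.397-fold, and Ppp1ca was at 676 and 701 in eIF4E against 1609 and 1564 in Input (0.434 of Input). Ppp1ca, the most abundant of the 3 in Input, was the 1 that fell. Both PP2A catalytic genes were higher, Ppp2ca by 1.81-fold and Ppp2cb by 1.37-fold, the latter without a call under median-of-ratios scaling (0.27, adjusted p = 0.0813) or quantile normalization (0.09, adjusted p = 0.51). Without Input replicate 2, eIF4E replicate 1 or eIF4E replicate 2 the adjusted p of Ppp2cb was 0.0653, 0.0924 and 0.068.

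Members of the MARCKS and HSP90 pairs lay on opposite sides of Input. Marcks, a membrane-bound substrate of protein kinase C that acts on actin, was at 204 and 218 in eIF4E against 66.1 and 63.97 in Input. Its relative Marcksl1 was at 512 and 524 in eIF4E against 1988 and 1986 in Input. Marcks was 3.21-fold higher (log2 1.68) and Marcksl1 at 0.261 of Input (log2 −1.94), with no overlap in either. Of the cytosolic HSP90 chaperones, Hsp90aa1 rose as above, and Hsp90ab1, the constitutive form, was at 935 and 916 in eIF4E against 1261 and 1288 in Input (0.727 of Input). The fall of Hsp90ab1 had no call with quantile normalization (−0.02, adjusted p = 0.671). Sumo2 and Sumo3, which encode modifiers of nuclear proteins, also parted, Sumo2 at 1128 and 1043 in eIF4E against 836 and 869 in Input (1.27-fold) and Sumo3 at 633 and 660.1 in eIF4E against 949.5 and 915 in Input (0.694 of Input). The call of Sumo2 was lost with median-of-ratios scaling (0.15, adjusted p = 0.0582) and without Input replicate 1 (0.32, adjusted p = 0.0533), and that of Sumo3 with quantile normalization (−0.09, adjusted p = 0.177).

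The ARF GTPases, which recruit coats to Golgi and plasma membranes, had 1 higher member, 3 lower and 2 without a call. Arf2 was at 91.3 and 102 in eIF4E against 52.8 and 51.1 in Input (1.84-fold), and Arf5 was at 85.1 and 74.5 in eIF4E against 179 and 186 in Input (0.439 of Input). Arf1 was at 258 and 231 in eIF4E against 346 and 377 in Input, or 0.676 of Input, and Arf4, at 602 and 656 in eIF4E against 678 and 647 in Input, had overlapping groups. Among casein kinases 1, which phosphorylate Wnt and clock proteins, 4 of 6 were higher and none lower, from Csnk1g3 at 8.51 and 8.93 in eIF4E against 0.46 and 0.51 in Input to Csnk1e at 1.18-fold. Csnk1e had no call with median-of-ratios scaling (0.05, adjusted p = 0.473) or with either Input library left out (0.22 and 0.26, adjusted p = 0.0773 and 0.0556). Csnk1d, at 59.9 and 61.3 in eIF4E against 57.05 and 59.4 in Input, did not pass (adjusted p = 0.3699).

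In other sets every called member went 1 way. All 3 HMGB genes, which bend DNA, were higher: Hmgb1 at 1618 and 1226 in eIF4E against 555 and 623 in Input, Hmgb2 at 987 and 1035 in eIF4E against 356 and 346 in Input and Hmgb3 at 1315 and 1372 in eIF4E against 498 and 476 in Input. All 3 HP1 genes of heterochromatin were higher, with Cbx3 at 150.5 and 139 in eIF4E against 24.4 and 23.6 in Input (5.82-fold) and Cbx1 and Cbx5 at 2.77-fold and 2.75-fold. The HMGN nucleosome-binding proteins had 3 of 4 higher, and Hmgn2, the most abundant, was at 979.5 and 822 in eIF4E against 773 and 772 in Input with no call (adjusted p = 0.0886; 0.00593 without eIF4E replicate 2). Each of the chromatin genes given here by value had a higher mRNA level in both eIF4E libraries than in either Input library, Hmgn2 included. Ubb, which encodes a chain of ubiquitin units, was lower, at 1906 and 1862 in eIF4E against 3279 and 3351 in Input. Rps27a, a fusion of ubiquitin with a ribosomal protein, was lower as well (0.661 of Input) and lost its call with quantile normalization (−0.17, adjusted p = 0.0597). Both cytoplasmic actins were lower, Actb at 2264 and 2349.5 in eIF4E against 5259 and 5210.4 in Input and Actg1 at 1168 and 1176 in eIF4E against 1867 and 1817 in Input.

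Of the remaining actin regulators, Dstn, the actin depolymerizing factor, was at 231 and 239 in eIF4E against 104 and 106 in Input (2.23-fold), Cfl2 rose 1.37-fold, and Cfl1 was at parity. Tmsb4x, the thymosin that holds actin monomers, was at 3051 and 2401 in eIF4E against 1603 and 1756 in Input (1.61-fold), while Tmsb10 was at 3141 and 2403 in eIF4E against 3577 and 3516 in Input with no call (adjusted p = 0.0585). The eIF4E libraries of both thymosins differed from each other by more than those of most genes, with replicate 1 above replicate 2. Without Input replicate 1 Tmsb4x had no call (0.62, adjusted p = 0.0645), and without eIF4E replicate 1 or 2 Tmsb10 passed as lower (−0.56 and −0.17). Tmsb15b1 and Tmsb15b2 did not pass as reported but did in some alternatives: Tmsb15b1 without eIF4E replicate 2 (1.31), Tmsb15b2 without Input replicate 2 (1.27) and with the same total (1.06), and both with a replicate block (adjusted p = 0.00817 and 0.0156). Tmsb15l, whose sequence they share in part, was 1.72-fold higher. Ube2d1 and Ube2d2a, ubiquitin-conjugating enzymes, were 1.38-fold and 1.56-fold higher, and Ube2d3, at 197 and 211 in eIF4E against 200.1 and 193 in Input, had overlapping groups. Dynll1, the dynein light chain, was at 88.4 and 26.7 in eIF4E against 146 and 136 in Input; its eIF4E replicates were so far apart that it had no call (adjusted p = 0.0625), and with either eIF4E replicate left out it passed as lower (log2 −2.36 and −0.67). Dynll2, at 2.71 and 2.17 in eIF4E against 2.5 and 2.24 in Input, had overlapping groups.

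**Figure D3:**
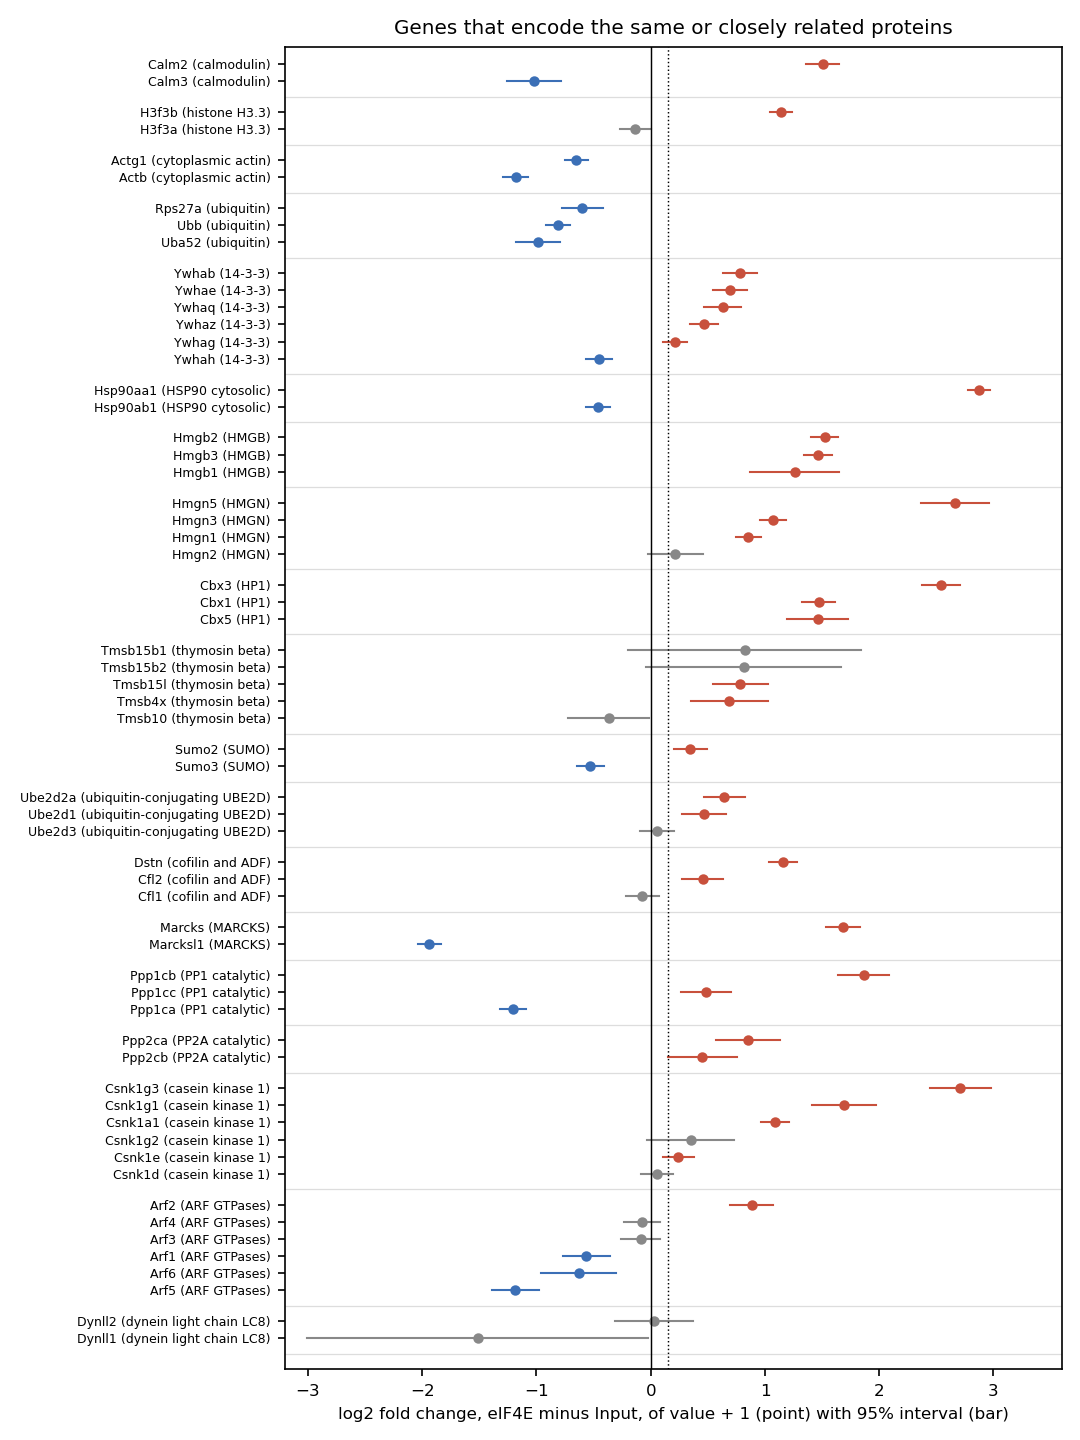
Log2 fold change of value + 1, eIF4E minus Input (x axis), with its 95% interval, for 61 of the 64 tested genes of 19 sets that encode the same or closely related proteins; red is higher, blue lower, grey no call, and the dotted line is the median of all genes (0.15). Marcks and Marcksl1, Hsp90aa1 and Hsp90ab1, and Calm2 and Calm3 lie on opposite sides of 0.

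The other genes were described in 38 lists of pathways and complexes, by counts and by the list median relative to the median of all genes. In 21 lists this relative median was above 0 and in 17 below it. The counts of every list stand beside 43.5% higher and 30.9% lower over all genes tested, so called members on both sides are no trait of a list. Over the lists, 59 of 485 memberships called higher were of genes under 1 in both Input libraries, as were 968 of all 5507 higher genes. Such a gene was tested only because eIF4E was high, so it had to differ and lends its list no support. Of the genes described by value these are Med13, Rasa1, Bmpr2, Scn3a, Nckap1, Xiap and, in the sets above, Csnk1g3. Over genes at 1 or more in all 4 libraries the relative median fell from 0.40 to 0.07 for myosins, from 0.42 to 0.18 for the Ras and MAP kinase cascade, from 0.58 to 0.35 for postsynaptic scaffolds and from 0.70 to 0.46 for TFIID and the general transcription factors. The IgG level is given for only some of the genes below. It lay above both eIF4E libraries for others too, such as Papola (220), Rasa1 (64.8) and Bmpr2 (32.01). For others it lay below both, such as Mphosph10 (28.4) and Cops2 (15.3). The machinery of gene expression is described first. Of 29 genes of TFIID and the general transcription factors, 20 were higher and 6 lower (relative median 0.70). Gtf2h1, of the TFIIH core, was at 48.5 and 52.8 in eIF4E against 7.07 and 6.56 in Input (6.61-fold), and Taf10, a small TFIID subunit, was at 7.9 and 2.97 in eIF4E against 27.1 and 26.3 in Input (0.215 of Input). Without Input replicate 1 or 2 Taf10 had no call (−2.20 and −2.24, adjusted p = 0.0517 and 0.05). Subunits of RNA polymerase II itself had 7 of 13 lower and 2 higher (−0.57, and −0.10 with quantile normalization). Polr2a, the largest subunit, was at 7.99 and 7.32 in eIF4E against 15.6 and 15.6 in Input, and Polr2b, the next largest, was at 61.6 and 63.7 in eIF4E against 32.3 and 30.9 in Input, so the subunits that form the active centre lay on opposite sides of Input. IgG was above every other library for Polr2a (101) and Polr2b (91.3).

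Mediator, the coactivator between enhancer-bound factors and the polymerase, had 16 of 32 genes lower and 12 higher (−0.37, and −0.02 with quantile normalization). Its kinase-module subunits Med13 and Med13l were the highest, Med13 at 5.27 and 5.5 in eIF4E against 0.3 and 0.26 in Input and Med13l at 11.8 and 12.7 in eIF4E against 2.15 and 2.13 in Input (4.22-fold). Med16, a tail subunit, was at 10.9 and 11.2 in eIF4E against 32.5 and 32.2 in Input (0.361 of Input). Factors of RNA 3′ end processing had 12 of 20 higher and 7 lower (0.34), with the poly(A) polymerase Papola at 111 and 126 in eIF4E against 31.6 and 30.5 in Input (3.72-fold) and the scaffold Cpsf1 at 21.6 and 21.4 in eIF4E against 46.8 and 45.9 in Input (0.476 of Input). The RNA exosome and its nuclear cofactors had 14 of 19 higher and 3 lower (0.51), with Exosc9 at 89.5 and 95.8 in eIF4E against 19.7 and 18.6 in Input and Exosc5 at 124 and 126 in eIF4E against 221 and 220.3 in Input, so subunits of the same ring differed in direction. Ribosome biogenesis factors split nearly evenly, with 26 of 53 higher and 24 lower (0.27). Mphosph10, of the small-subunit processome, was at 57.3 and 60.9 in eIF4E against 4.11 and 3.62 in Input (12.4-fold), and Fbl, the rRNA methyltransferase fibrillarin, was at 49.9 and 49.04 in eIF4E against 203 and 200.3 in Input (0.249 of Input).

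Lists of the secretory pathway lay on both sides of the median of all genes. ER chaperones and oligosaccharyltransferase subunits had the lowest relative median of the 38 lists on the deposited scale (−0.93; with quantile normalization −0.55, beside −0.56 for receptor tyrosine kinases), with 14 of 25 lower and 8 higher. Hyou1, an ER chaperone of the HSP70 family, was at 7.36 and 7.55 in eIF4E against 19.3 and 23.7 in Input (0.378 of Input). Hsp90b1, the ER form of HSP90, went the other way at 185 and 196 in eIF4E against 61.1 and 60.5 in Input (3.1003-fold), as its cytosolic relative Hsp90aa1 did. The ER translocon, signal recognition particle and signal peptidase had 16 of 35 lower and 12 higher (−0.15), from Emc10 at 55.8 and 50.2 in eIF4E against 149.7 and 150.4 in Input to Srp54a at 20.7 and 23.2 in eIF4E against 2.92 and 2.58 in Input. The channel subunit Sec61a1 was at 49 and 50.9 in eIF4E against 115 and 113 in Input (0.443 of Input). COPI and COPII coats had 9 of 21 lower and 8 higher (−0.13, and 0.03 with quantile normalization), with Arcn1 at 72.6 and 77.8 in eIF4E against 26.1 and 20.9 in Input and Cope, a subunit of the same COPI coat, at 252 and 256 in eIF4E against 434 and 440.1 in Input.

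Downstream of the ER, the lists of tethers and SNAREs lay above the median of all genes and the tetraspanins below it. Golgins and Golgi tethers had 13 of 22 higher and 6 lower (0.76). Golga5 was at 31.6 and 38.5 in eIF4E against 3.87 and 4.92 in Input (6.69-fold), and Bicd1, a dynein adaptor, was at 15.3 and 18.2 in eIF4E against 1.13 and 1.64 in Input and far higher in IgG (101). Gorasp1, which stacks Golgi cisternae, was at 25.5 and 23.5 in eIF4E against 52.95 and 49.1 in Input (0.491 of Input). SNAREs and fusion factors had 17 of 30 higher and 6 lower (0.33), with Snap23 at 21.2 and 23.2 in eIF4E against 2.96 and 3.7 in Input and Use1, of the ER, at 29.2 and 26.4 in eIF4E against 77.9 and 87.97 in Input. Tetraspanins, which order membrane proteins into domains, had 10 of 18 lower and 3 higher (−0.68). Cd63, of late endosomes, was at 94.99 and 96.7 in eIF4E against 256 and 264 in Input (0.372 of Input), and Tspan12, which helps Norrin signal through Frizzled, was at 53.03 and 55.3 in eIF4E against 9.8 and 9.41 in Input (5.1997-fold).

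**Figure D4:**
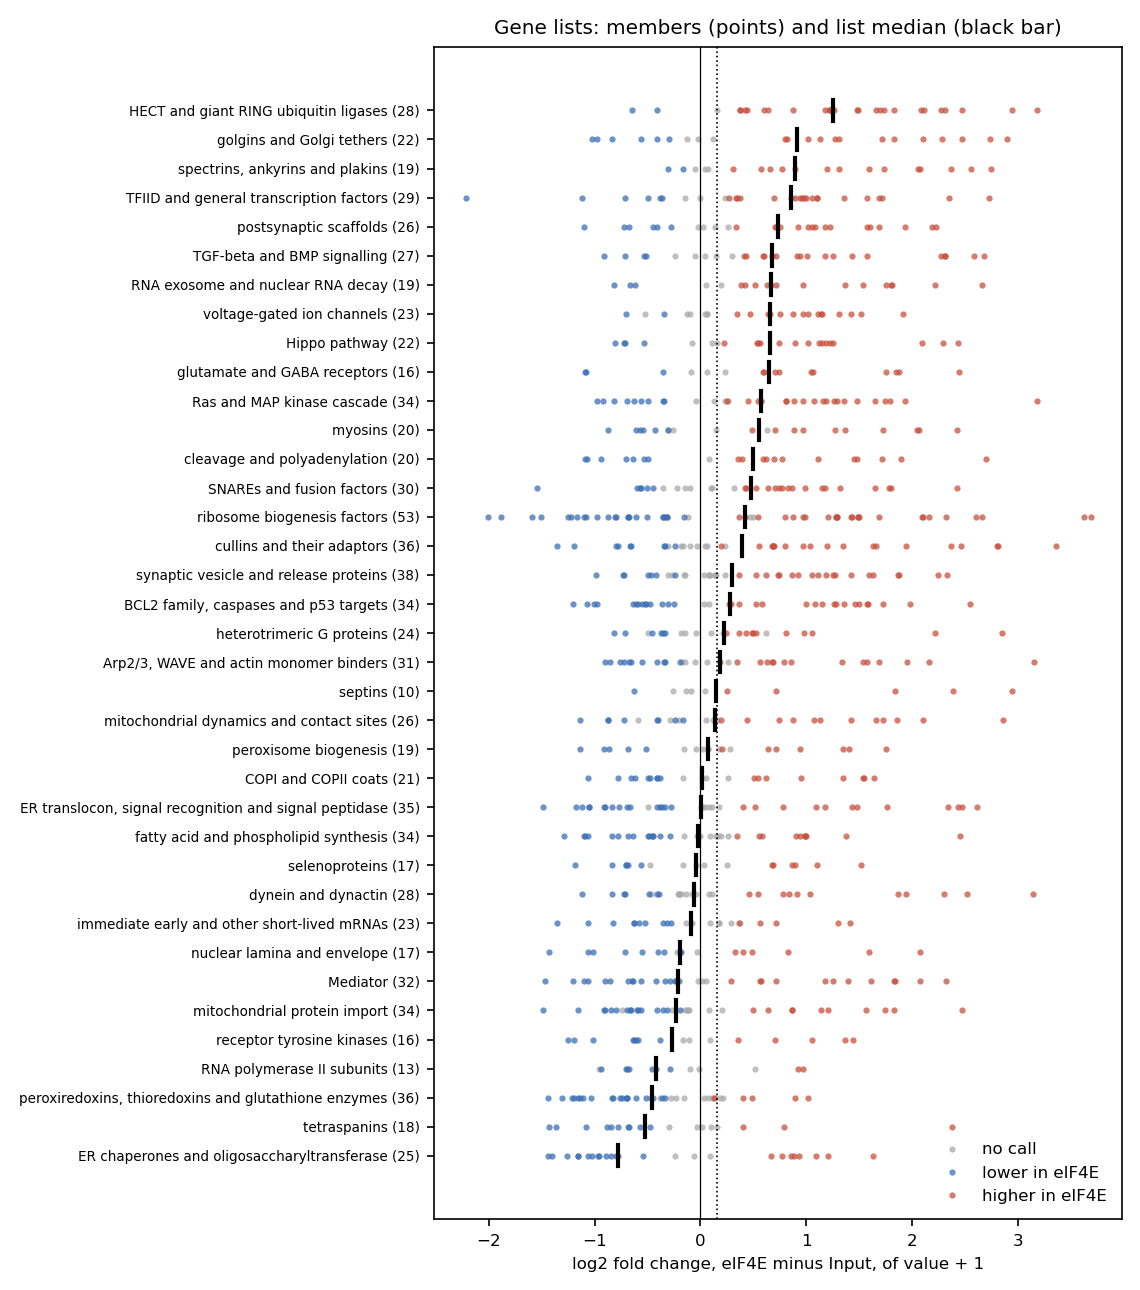
Log2 fold change of value + 1, eIF4E minus Input (x axis), of each tested member (points; red higher, blue lower, grey no call) in 37 of the 38 gene lists, with the number tested in parentheses, the list median as a black bar and the median of all genes as a dotted line. The lists are ordered by median, from HECT and giant RING ubiquitin ligases to ER chaperones, and most lists hold members on both sides of 0.

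Signalling pathways are given from the cell surface inwards, beside 43.5% higher and 30.9% lower over all genes tested. Receptor tyrosine kinases had 8 of 16 lower and 5 higher (−0.43). Erbb2 was at 5.68 and 5.12 in eIF4E against 12.9 and 14.3 in Input (0.438 of Input) and Ptk7, a pseudokinase of planar polarity, at 21.04 and 22.3 in eIF4E against 52.9 and 53.4 in Input (0.418 of Input). Fgfr2 was at 28.9 and 34.4 in eIF4E against 11.7 and 10.4 in Input (2.71-fold), and Igf1r was at 42.1 and 36.8 in eIF4E against 13.3 and 16.3 in Input (2.57-fold). Below the receptors, the Ras and MAP kinase cascade had 20 of 34 higher and 9 lower (0.42), with 7 of the 20 under 1 in both Input libraries. Hras, a Ras gene, was at 6.51 and 6.05 in eIF4E against 12.6 and 14.04 in Input (0.509 of Input). Rasa1, a GTPase-activating protein that switches Ras off, was at 11.2 and 12.2 in eIF4E against 0.49 and 0.31 in Input (9.07-fold), and Dusp6, a phosphatase of ERK and one of its targets, was at 2.99 and 2.45 in eIF4E against 5.69 and 6.36 in Input (0.529 of Input).

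TGF-beta and BMP signalling had 18 of 27 higher and 4 lower (0.52). Of these 18, 4 were under 1 in both Input libraries, Bmpr2 among them, and so were tested only through eIF4E. Bmpr2, a receptor, was at 6.81 and 6.95 in eIF4E against 0.31 and 0.31 in Input (6.02-fold), and Skil, a repressor of SMAD proteins, was at 17.9 and 18.8 in eIF4E against 2.32 and 1.74 in Input (6.42-fold). The targets Id1 and Id3, which encode helix-loop-helix inhibitors, were lower, Id1 at 14.1 and 12.2 in eIF4E against 24.2 and 26.9 in Input and Id3 at 26.4 and 21.9 in eIF4E against 39.4 and 40.7 in Input. The Hippo pathway, which restrains growth, had 15 of 22 higher and 4 lower (0.50), with 3 of the 15 under 1 in both Input libraries. Its kinase Stk3 was at 10.6 and 11.1 in eIF4E against 1.43 and 0.96 in Input (5.42-fold), and its target Ccn1 was at 20.8 and 20.5 in eIF4E against 36.5 and 37.3 in Input (0.572 of Input). Heterotrimeric G proteins had 11 of 24 higher and 6 lower (0.07), from Gnai3 at 67.8 and 69.6 in eIF4E against 8.98 and 8.38 in Input to Gnb2 at 130.3 and 136 in eIF4E against 219.8 and 219.6 in Input among the more abundant. Immediate early and other short-lived mRNAs had 10 of 23 lower and 5 higher (−0.24), with Junb at 2.16 and 1.85 in eIF4E against 6.41 and 7.02 in Input and Klf6 at 30.3 and 31.3 in eIF4E against 9.19 and 12.98 in Input.

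Neuronal lists are read against all genes tested, of which 43.5% were higher and 30.9% lower. Their higher members were long genes, with median genomic spans from 146 kb (synaptic vesicle and release) to 251 kb (glutamate and GABA receptors). Among all genes in the longest of 5 bins by span (66.9 kb or more), 67.8% were higher. The part of span in these lists was not tested. Postsynaptic scaffolds had 16 of 26 higher and 6 lower (0.58), with Cask at 22.2 and 22.6 in eIF4E against 3.36 and 4.69 in Input (4.69-fold) and Homer3 at 40.9 and 41.6 in eIF4E against 69.7 and 68.2 in Input (0.604 of Input). Synaptic vesicle and release proteins had 19 of 38 higher, close to the share over all genes, and 7 lower (0.15, and −0.12 with quantile normalization). Snap25, the membrane SNARE of release, was at 58.2 and 60.6 in eIF4E against 13.03 and 10.6 in Input (4.73-fold), and Syp, synaptophysin of the vesicle membrane, was at 34.8 and 37.4 in eIF4E against 72.7 and 72 in Input (0.505 of Input). Voltage-gated ion channels had 15 of 23 tested higher and 2 lower (0.50), and glutamate and GABA receptors had 10 of 16 higher and 3 lower (0.50). In Input 7 of the 15 higher channels, 5 of the 10 higher receptors and 7 of the 16 higher scaffolds were under 1 in both libraries. The relative median of the voltage-gated channels was −0.02 over genes at 1 or more in all 4 libraries. Scn3a, the sodium channel of embryonic neurons, was at 3.39 and 3.32 in eIF4E against 0.17 and 0.14 in Input, and Gria2, an AMPA receptor subunit, was at 11.96 and 12.99 in eIF4E against 1.41 and 1.55 in Input and 93.02 in IgG.

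Among cytoskeletal lists, the large linker proteins had the highest median. Their higher members were long genes too, with a median genomic span of 253 kb, and the part of span was not tested. Spectrins, ankyrins and plakins had 14 of 19 higher and 2 lower (0.74), with Dst at 12.7 and 12.9 in eIF4E against 0.81 and 1.34 in Input and Ank3, ankyrin-G of the axon initial segment, at 21.5 and 22.3 in eIF4E against 3.3 and 2.54 in Input (5.87-fold). Both were higher still in IgG (107 and 69). The 2 lower members, Plec and Add1, were close to the threshold (adjusted p = 0.0499 and 0.0316). Neither had a call when any 1 library was left out (adjusted p from 0.0815 to 0.152 for Plec and 0.0562 to 0.169 for Add1), and Add1 turned with the same total (0.07). Myosins and their regulators had 10 of 20 higher and 6 lower (0.40), with the motor Myo5a at 8.08 and 10.3 in eIF4E against 1.55 and 1.3 in Input and the light chain Myl12a at 147 and 139 in eIF4E against 252 and 275 in Input. Dynein and dynactin had 11 of 28 higher and 7 lower (−0.21, and 0.07 with quantile normalization). Dynlt3, a light chain, was at 20.5 and 20.7 in eIF4E against 1.4 and 1.5 in Input (8.83-fold), and Dctn1, the large dynactin subunit that binds dynein, was at 56.1 and 56.6 in eIF4E against 125 and 122 in Input (0.461 of Input).

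Septins had 5 of 10 higher and 1 lower, with a relative median of −0.0026 that turned with most settings. Septin7, the shared subunit of septin filaments, was at 100 and 106 in eIF4E against 13.3 and 11.7 in Input (7.72-fold), and Septin5 was at 19.03 and 19.1 in eIF4E against 29.9 and 30.2 in Input (0.646 of Input). Actin nucleators of the Arp2/3 and WAVE complexes and monomer binders had 15 of 31 higher and 11 lower (0.04, turning to −0.09 without eIF4E replicate 2). Nckap1, of the WAVE complex, was at 11.5 and 10.1 in eIF4E against 0.36 and 0.28 in Input (8.901-fold). Coro1a, which binds Arp2/3, was at 100.4 and 99.5 in eIF4E against 178 and 184 in Input. In IgG, the library with the fewest genes above 0, Coro1a was listed at 0. The nuclear lamina and envelope had 9 of 17 lower and 6 higher (−0.35). Lmna was at 5.78 and 4.58 in eIF4E against 15.3 and 15.8 in Input (0.371 of Input). Syne2, the nesprin that moves progenitor nuclei, was at 101 and 113 in eIF4E against 24.9 and 24.5 in Input (4.21-fold). In IgG, Syne2 was at 418, above both eIF4E libraries, and Lmna was at 1.44, below them.

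Lists of redox enzymes and mitochondrial import factors lay below the median of all genes. Of 36 peroxiredoxins, thioredoxins and glutathione enzymes, 20 were lower and 5 higher (−0.61). Gstm5, a glutathione transferase, was at 54.1 and 44.4 in eIF4E against 139 and 129.7 in Input (0.369 of Input), and Gsr, glutathione reductase, was at 11.4 and 10.1 in eIF4E against 29.6 and 26.7 in Input (0.403 of Input). Txnrd1, thioredoxin reductase, was at 73.96 and 74.5 in eIF4E against 39.9 and 39.01 in Input (1.86-fold) and so differed from Gsr in direction. Mitochondrial protein import had 16 of 34 lower and 10 higher (−0.39, and −0.04 with quantile normalization). Its outer membrane receptor Tomm70a was at 16.8 and 17.6 in eIF4E against 2.24 and 2.35 in Input (5.53-fold), and Mtx1, metaxin of the same membrane, was at 131 and 136 in eIF4E against 293 and 304 in Input (0.449 of Input). Mitochondrial dynamics and contact sites had 12 of 26 higher and 8 lower, with a relative median of −0.015 that turned with several settings. Rhot1, which links mitochondria to motors, was at 49.1 and 52.2 in eIF4E against 11.3 and 10.8 in Input (4.29-fold), and Vdac1, the outer membrane channel, was at 63.03 and 63.9 in eIF4E against 118 and 117 in Input (0.544 of Input).

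Lipid, peroxisome and selenium genes had called members on both sides, as did all genes tested (43.5% higher and 30.9% lower). Fatty acid and phospholipid synthesis had 14 of 34 lower and 10 higher (−0.18), with Fasn, fatty acid synthase, at 45.3 and 43.7 in eIF4E against 98.3 and 94.4 in Input and the elongase Elovl6 at 19.7 and 18.8 in eIF4E against 2.39 and 3.01 in Input. Selenoproteins had 6 of 17 higher and 6 lower (−0.19, and 0.19 with quantile normalization). Gpx4, which reduces lipid peroxides, was at 341 and 273 in eIF4E against 546 and 544 in Input (0.561 of Input), and Selenop, the selenium carrier, was at 17.5 and 19.8 in eIF4E against 6.33 and 5.39 in Input (2.87-fold). Peroxisome biogenesis had 7 of 19 higher and 5 lower (−0.08, turning to 0.01 without Input replicate 2 and to 0.02 with no filter), with the docking factor Pex13 at 22.8 and 22.4 in eIF4E against 5.54 and 6.46 in Input.

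Ubiquitin ligases stood at the other end of the order. HECT and giant RING ligases had 25 of 28 tested genes higher and 2 lower (relative median 1.10, the highest of the 38 lists). The higher members had a median genomic span of 112 kb. Among all genes in the longest of 5 bins by span (66.9 kb or more), 67.8% were higher. The part of span in this list was not tested. Mycbp2, a giant ligase of axon guidance, was at 19.1 and 19.8 in eIF4E against 1.27 and 1.25 in Input (9.05-fold, log2 3.18, SE 0.09, limma adjusted p = 7.44e-05). The 2 lower members were Ube3b, at 15.6 and 20.1 in eIF4E against 27.96 and 28.5 in Input, and Ubr4, at 8.7 and 9.17 in eIF4E against 11.3 and 13.2 in Input. Ube3b had no call with either Input library left out (−0.66 and −0.63, adjusted p = 0.063 and 0.0692), and Ubr4 none with Input replicate 2, eIF4E replicate 1 or eIF4E replicate 2 left out in turn (adjusted p = 0.0854, 0.0914 and 0.0657). IgG lay above both Input libraries in 20 of the 25 higher members, beside 65.1% of all higher genes. Cullins and their adaptors had 19 of 36 higher and 9 lower (0.24). Cops2, of the COP9 signalosome that recycles cullins, was at 36 and 39.3 in eIF4E against 2.72 and 2.8 in Input (10.3-fold), and Ddb1, the adaptor of CUL4, was at 148 and 156 in eIF4E against 355 and 346 in Input (0.435 of Input). In the BCL2 family, caspases and p53 targets, 18 of 34 were higher and 14 lower (0.13): the caspase inhibitors Birc2 and Xiap were at 5.84-fold and 3.96-fold, and Bbc3, the p53 target PUMA, was at 3.29 and 2.98 in eIF4E against 9.61 and 7.57 in Input (0.433 of Input).

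Higher and lower members of these lists differed in the genomic span of their genes. In each of the 38 lists, the median RefSeq span, start to end with introns, was longer for the higher members than for the lower. Over all genes tested the median span was 36.8 kb for higher genes, 11.95 kb for lower genes and 18.5 kb for genes with no call. Of the named pairs, Calm2 spans 13.54 kb and Calm3 8.65 kb, and Ppp1cb spans 34.9 kb and Ppp1ca 3.25 kb. The HSP90 pair did not differ so: Hsp90aa1 spans 5.36 kb and Hsp90ab1 5.48 kb.

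The 12296 genes with a RefSeq match were split by span into 5 bins of equal size. The median log2 difference was −0.39 in the shortest bin (0.297 to 6.73 kb), then −0.13, 0.11 and 0.53, and 0.77 in the longest (66.9 to 2390.4 kb). Genes called higher made up 19.5% of the shortest bin and 67.8% of the longest, and genes called lower 50.5% and 12.4%. Taken separately, replicates 1 gave −0.33 and 0.76 in the shortest and longest bins and replicates 2 gave −0.43 and 0.79. Spearman's correlation between span and difference across these genes was 0.40, a description, since genes are not independent and share the 4 libraries. The lone IgG library minus Input, which shares the Input libraries, ran from −1.43 to 1.08 over the same bins.

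Level in Input moved with the difference as well. In 5 bins by the level in Input replicate 1, compared in eIF4E against Input replicate 2 so that the level and the difference came from separate Input libraries, the medians were 0.88, 0.44, 0.23, −0.12 and −0.40 from the lowest to the highest. In the lowest bin 1012 of 2530 genes were under 1 in both Input libraries and were tested only because both eIF4E libraries reached 1, so the filter itself raised the median of that bin and of the lowest group below; the other 4 bins held no such gene. Genes were also split into 3 groups by that level. In the lowest group the median rose from −0.04 in the shortest span bin to 1.05 in the longest, and in the middle group from −0.35 to 0.62. In the highest group it rose from −0.60 in the shortest bin to 0.0013 in bin 4 and was −0.04 in the longest. Span and level thus both moved with the difference, and their part in the results for single genes and lists was not tested. The G+C content of the first 50 transcribed bases showed no steady trend with it, with both end bins above the middle ones: Spearman's correlation was −0.0062 over 9560 genes, and 5 bins by it had medians of 0.25, 0.10, 0.10, 0.10 and 0.23.

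**Figure D5:**
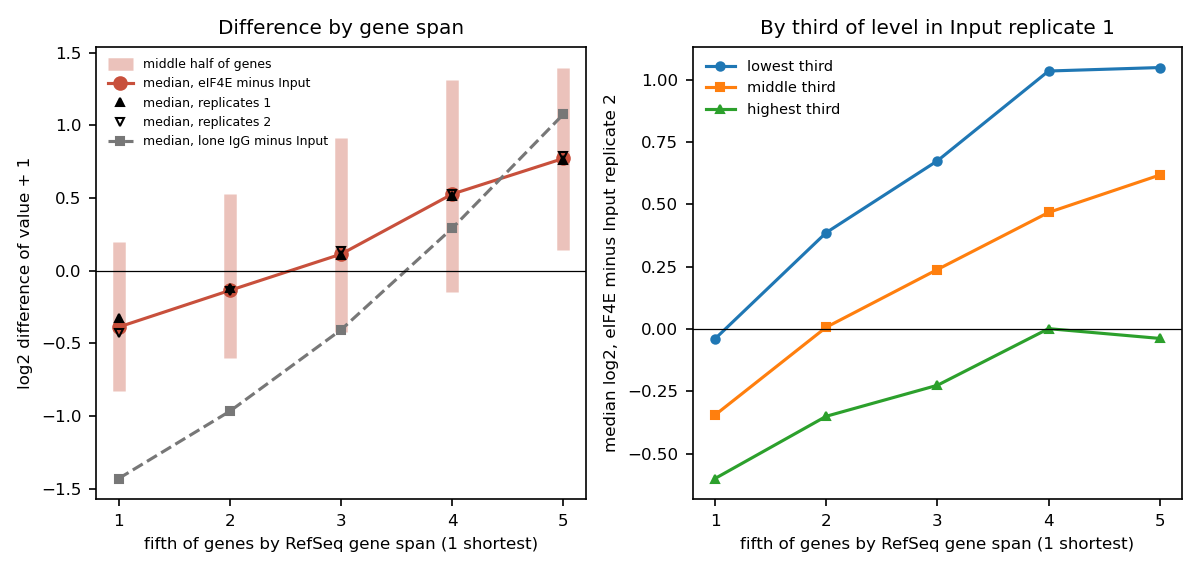
Left, median log2 difference of value + 1 (y axis) in 5 bins of RefSeq gene span (x axis, 1 shortest) for eIF4E minus Input (circles, with bars from the lower to the upper quartile of genes), for each replicate number (triangles) and for the lone IgG library minus Input (squares); right, the same for eIF4E minus Input replicate 2 within 3 groups by the level in Input replicate 1. Medians rise with span from −0.39 to 0.77 in eIF4E and from −1.43 to 1.08 in IgG, and the rise is seen in each group by level, ending at bin 4 in the highest.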

How the data were processed

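Per the labels' protocols, E13.5 cortices were dissociated, cells were lysed in a buffer with NP-40, and what stayed in solution after low-speed centrifugation served as Input or for precipitation. Smart-seq2 libraries are primed on poly(A) tails and mark neither strand nor molecules, so overlapping genes on opposite strands and amplified copies cannot be told apart. The authors deposited 1 table of RNA abundances, either TPM or FPKM, with no counts. Per the submitters' processing notes, the build was mm10 and the tools included RSEM 1.3.3 and STAR 2.7.9a; the annotation is not given in the sources used here.

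Of 50161 rows, 286 repeated a gene ID already present, with identical values, and were removed. Sample titles gave 2 eIF4E, 2 Input and 1 IgG library. Genes at 1 or more in at least 2 of the 4 eIF4E and Input libraries were transformed as log2(value + 1) and tested with limma 3.58.1 in R 4.3.3 (two-sided, moderated with a mean trend by eBayes; p-values adjusted by Benjamini-Hochberg over all 12648 genes, called under 0.05). The fit had 2 residual and, at the median, 2.55 prior degrees of freedom, and was tested on simulated data. Members and lists were chosen with earlier results of these data known, so lists are described by counts and medians with no test.

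Genes named were, per direction, the 12 most abundant that passed, differed at least 2-fold and did not overlap (without predicted or clone names, mitochondrial and ribosomal protein genes), the 8 most abundant at parity, genes at 0 in 1 group and at 5 or more in the other, the 2 highest and 2 lowest called members of each list, Eif4e and all members of the protein sets. Not all of these are printed, and a few genes, 1 gene list and 1 start sequence are not reported here. Gene spans, promoters and positions came from RefSeq tables of GRCm38.p6, matched by symbol (12296 genes with a span, 9560 with a start). Protein lengths were not analysed here, and gene span was used after the data were seen. The 14 alternatives covered scaling, pseudocount, filter, trend, samples in the fit, replicate block and each library left out.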

Additional observations from a re-analysis of the deposited data

How the results depend on the processing

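With 2 libraries a group and unknown depth, low values and small differences are the least certain. Over the 14 alternatives, the counts of genes higher and lower stayed within 1.5 times those reported, from 4316 to 6452 and from 2756 to 5177. Counts of genes at least 2-fold lower moved more: 925 as reported, 1459 with median-of-ratios scaling, 1748 with quantile normalization, 567 with the same total and 535 with a pseudocount of 5, where the genes at least 2-fold higher were 1593 instead of 2966. A larger pseudocount shrinks the fold of low genes by construction; for the scalings the cause was not tested. With no filter 21213 genes were tested, and with 1 or more in all 4 libraries 10651. Leaving out each library in turn gave 4821 to 5072 genes higher, 2978 to 3695 lower, 2955 to 3018 at least 2-fold higher and 846 to 1091 at least 2-fold lower.

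The replicate numbers were not shown to pair the libraries: deviations of same-numbered eIF4E and Input libraries correlated with r = 0.025 across genes, a description. With the number as a replicate block, 5360 genes were higher and 3754 lower, 2971 and 930 of them by at least 2-fold, and 8935 of the 9415 calls were kept. Of the 238 genes named by the rule, 7 lost and 5 gained a call under the block.

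Directions of named genes turned only under other scalings. With median-of-ratios scaling Prdx1 was at −0.064 and Gabarapl2 at −0.19 on the log2 scale. With quantile normalization Ppia was at 0.72, Cfl1 at 0.56, Oaz1 at 0.48, Akr1a1 at 0.26, H3f3a at 0.28, Arf4 at 0.36 and Dynll2 at −0.46. With the same total Ppia was at 0.18, Cfl1 at 0.17, Oaz1 at 0.11, Akr1a1 at 0.10 and Add1 at 0.074. The longest of the 5 span bins stayed above the shortest in every alternative, by 0.65 (pseudocount 5) to 1.44 (pseudocount 0.1) against 1.16 as reported.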

Other observations

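Chromosomes differed in their median log2 difference between eIF4E and Input, with no test. Chromosomes 7, 19 and 17 had the lowest medians (−0.24, −0.13 and −0.08), and chromosomes X, 18 and 13 the highest (0.61, 0.59 and 0.51). The median gene span was 15.4, 16.3 and 15.8 kb on the former and 19.1, 35.5 and 23.8 kb on the latter. By RefSeq class, 397 long noncoding RNA genes had a median of 0.26, 11422 protein-coding genes 0.16 and 394 pseudogenes −0.25. Genes called lower made up 16.9% of the long noncoding RNA genes, 31.5% of the protein-coding genes and 35.5% of the pseudogenes.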
